A study of Mus musculus with 6 samples.

Results

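The fatty acid desaturases Scd1, Scd2, Scd3, Fads1, Fads2 and Fads3 and the elongation cycle enzymes Hacd1, Hacd2, Hacd3 and Tecr were followed in the fat of tumour-bearing mice. These 10 genes were taken by name from the 55039 genes of the deposited tables, and all 10 passed edgeR's filter on low counts, as did 17296 genes in total. The elongase Elovl6, the gene at the centre of the study, was set beside them. Messenger RNA was sequenced from whole epididymal fat (eWAT), a visceral white fat pad, of 6 male C57BL/6 mice aged 6 to 7 weeks at the start. The 3 CAC mice, a model of cancer-associated cachexia, carried tumours from LLC cells (Lewis lung carcinoma) injected under the skin, and the 3 CONT mice had received PBS. Tissue was taken 28 days later and 1 library was made per mouse, so the p-values below measure the spread between mice. No genetic change was named for either group.

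Long-chain fatty acids are lengthened in the endoplasmic reticulum by a repeated cycle. An elongase such as Elovl6 joins an acyl-CoA with malonyl-CoA, the ketoreductase Hsd17b12 reduces the product, a dehydratase of the Hacd family removes water, and the enoyl reductase Tecr saturates the remaining double bond. Scd enzymes place the first double bond into saturated acyl-CoAs, chiefly making oleate and palmitoleate, and Scd1 is the main form in adipocytes and liver, while Fads1 and Fads2 add double bonds to polyunsaturated fatty acids nearer the carboxyl end.

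The libraries held between 15713794 and 25926425 counted reads. CPM values below are edgeR's, read counts scaled to the TMM-adjusted library size, and 1 CPM stood for 11.2 to 26.5 reads. CONT replicate 1 stood apart, with 30.2% of its counts on mitochondrial genes against 3.89 to 5.04% in the other libraries. The fat cell markers Adipoq, which encodes adiponectin, and Plin1, a coat protein of lipid droplets, were high in every library, at 1692 to 3372 CPM and 778 to 2229 CPM. The 12 fat cell markers summed to 24778 to 56702 CPM in CONT and 37093 to 50668 CPM in CAC. Not all members were alike, as Fabp4, a fatty acid carrier, had 22459.8, 6182 and 7283 CPM in CONT and 13836, 3233 and 3749.8 CPM in CAC. In bulk tissue, fewer cells of a type and less RNA per cell cannot be told apart. Marker lists of other cells moved between libraries. The 5 neutrophil markers summed to 4.99 to 55.3 CPM in CONT and 151 to 1048 CPM in CAC, where the calgranulin gene S100a9 reached 461 CPM in CAC replicate 3 and the defining marker Ly6g stayed at 3.25 CPM or less, with no read in CONT replicate 1. The 8 epididymis markers summed to 13.9 to 9263 CPM in CONT and 0 to 15.9 CPM in CAC, led by Gpx5 with 5354 CPM in CONT replicate 3. The 7 brown and beige fat markers summed to 25.9 to 42.3 CPM in CONT and 25.7 to 150.9 CPM in CAC. The part of these shifts in the results below was not tested.

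Of the 10 genes, 3 differed between CAC and CONT at an unadjusted p under 0.05 in edgeR's quasi-likelihood test, against 13.3% of all genes tested. The dehydratase gene Hacd2 and the desaturase gene Scd3 were higher in CAC, against 6.31% of all genes in that direction, and the desaturase gene Scd2 was lower, against 6.95%. Elovl6 was lower as well. After adjustment over all 17296 genes, 0 of the 10 and 0% of all genes had an adjusted p under 0.05 in edgeR. With DESeq2, the tool of the study, 2 of the 10 passed, with Hacd2 rising and Scd2 falling, against 4.97% of the 18444 genes that it adjusted. Under limma's voom with weighted samples, Hacd2 passed alone of the 10, against 5.51% of genes. The study had picked Hacd2 and Elovl6 on these same libraries, so their counts among these genes are not independent evidence. In 2 of the 10, Scd2 and Hacd2, the 3 CAC libraries lay outside the range of the 3 CONT libraries, against 22.5% of all genes tested. The median log2 fold change of the 10 was -0.23, against -0.06 over all genes tested.

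**Figure D1:**
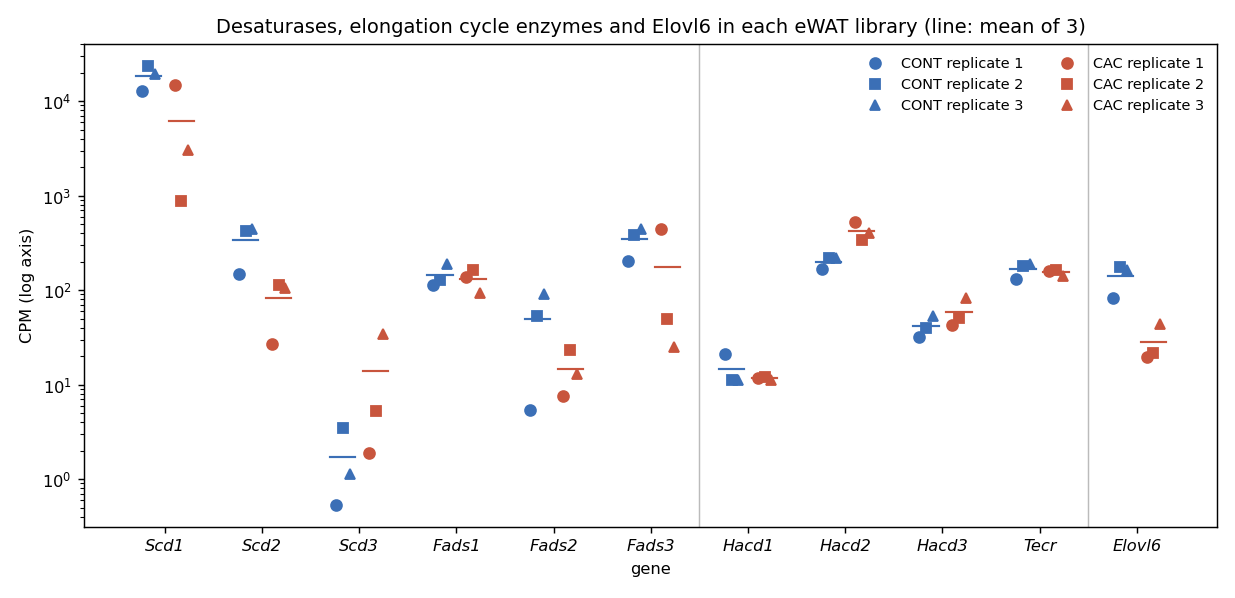
CPM on a log axis of the 10 genes and Elovl6 in each library, with blue for CONT, red for CAC, a marker shape for each replicate and a line at each group mean. CAC replicate 1 sits with the CONT libraries for Scd1 and Fads3 and lowest of the 6 libraries for Scd2 and Elovl6, while the 3 Hacd2 values of CAC lie above those of CONT.

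Per length, the 10 genes covered a wide span in CONT eWAT. Scd1 stood first with 3087 ± 895 FPKM (mean ± SD, n = 3; FPKM values are the authors', scaled for gene length and library total). Fads3 followed with 84.9 ± 31.2, Tecr with 61.2 ± 11.2, Scd2 with 49.6 ± 23.9 and Hacd2 with 43.1 ± 5.69 FPKM, and the 3 CONT libraries of each overlapped those of the next in this order. Fads1 had 33.6 ± 9.46, Fads2 26.5 ± 22.9, Hacd3 12.3 ± 3.13, Hacd1 5.55 ± 2.23 and Scd3 0.394 ± 0.354 FPKM. Elovl6, at 17.5 ± 6.19 FPKM, stood between Fads2 and Hacd3. In CAC, Scd1 still had the highest mean, 1059.9 ± 1281 FPKM, and Hacd2 came next with 91.9 ± 20.5 FPKM.

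Scd1 lies on chromosome 19 (GRCm38, chr19:44394451-44407709), in a cluster of 204 kb that also holds Scd2, Scd3 and Scd4. Scd1 had 141890, 538543 and 432500 reads in CONT replicates 1 to 3, or 12652, 23588 and 19550.0 CPM. In CAC it had 360850, 21664 and 79967 reads, or 14818, 874 and 3019 CPM. CAC replicates 2 and 3 were well under every CONT library, while CAC replicate 1 was above CONT replicate 1, so the groups overlapped. Scd1 took 0.903 to 2.72% of all counts in CONT and was the gene with the most reads in CONT replicates 2 and 3. It ranked 11 by reads in CONT replicate 1, 3 in CAC replicate 1, 81 in CAC replicate 2 and 22 in CAC replicate 3. The group means were 18597 ± 5529.8 and 6237 ± 7508 CPM (n = 3 each), 2.98-fold lower in CAC, with a log2 fold change of -1.58 (SE 0.99; edgeR, adjusted p = 0.517). The highest CAC library was 16.9 times the lowest, a spread that 3.02% of all genes tested exceeded, against a median of 1.55 over all genes. Without CAC replicate 1, the log2 fold change of Scd1 was -3.20 (edgeR, adjusted p = 0.253), and DESeq2 gave an adjusted p of 8.84e-06. The edgeR log2 fold change was -1.04 without CAC replicate 2 and -1.24 without CAC replicate 3, neither with an unadjusted p under 0.05.

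The hormone gene Lep, which encodes leptin, was among the fat cell markers and was named after its values were seen. It was likewise high in CAC replicate 1 and low in CAC replicates 2 and 3. It stood at 697, 409 and 414 CPM in CONT and at 512, 4.0 and 0.415 CPM in CAC. Within CAC, Plin1, Adipoq and Fabp4 were also highest in replicate 1, but not all genes of fat cells were. Pnpla2, a lipase gene, had 4177, 3787 and 4725 CPM in CAC replicates 1 to 3, and Pparg had 216, 284 and 199 CPM. The 3 genes whose log2 CPM followed Scd1 most closely over the 6 libraries, out of 10195 searched, were Snx11 (Pearson r = 0.992), a sorting nexin, Laptm5 (0.992), a lysosomal membrane protein of blood cells, and Tnfaip8l2 (0.988). Their levels moved far less than that of Scd1, Laptm5 from 114.7 CPM in CONT replicate 3 to 60.7 CPM in CAC replicate 2. The correlations describe 6 libraries, of which the 3 from CAC mice were also the deepest.

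The Scd genes are close copies of each other, which bears on how their reads were told apart. Over the coding sequence, Scd1 was 91.46% identical to Scd3 and 90.33% to Scd2 (GENCODE M21 transcripts). Of the 50-base windows of the Scd1 transcript, 3.49% occurred without a mismatch in Scd3 and 3.03% in Scd2, so reads from those stretches could belong to either gene. The primers that the study used for qPCR of Scd1 show the same likeness on a small scale. They are printed here with their closest site in each Scd transcript, 5′ to 3′ in the direction of the primer, and capitals mark bases that differ from the primer.
Forward primer and Scd1: cgcccctacgacaagaacat
Scd2, forward: cgcccctacgacaagaacat
Scd3, forward: cgcccctacgaTaagaacat
Scd4, forward: cgGccctaTgacaGgGGcat
Reverse primer and Scd1: aagcccaaagctcagctact
Scd2, reverse: aGgGccaCagctcagcAaAt
Scd3, reverse: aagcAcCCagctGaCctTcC
Scd4, reverse: TGAcccCaCActcagctact
The forward primer, within the coding sequence, matched Scd1 and Scd2 exactly and Scd3 with 1 mismatch. The reverse primer, across the end of the coding sequence, matched Scd1 alone among the mouse transcripts searched, with at least 5 mismatches in the other Scd genes. The pair spanned 272 bases of the Scd1 transcript.

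Scd2, the form known from brain and from early development of skin and liver, had 1670, 9554 and 9825 reads in CONT, or 149, 418 and 444 CPM. In CAC it had 654, 2833 and 2785 reads, or 26.9, 114 and 105 CPM. Every CAC library was below every CONT library, and CAC replicate 1, which was high for Scd1, was the lowest of all for Scd2. The means were 337 ± 164 and 82.1 ± 48.1 CPM, 4.11-fold lower in CAC, with a log2 fold change of -2.04 (SE 0.65; edgeR, adjusted p = 0.295). DESeq2 gave -2.0 with an adjusted p of 0.0343, a call that held without CONT replicate 1 or CAC replicate 1 and was lost without any of the other 4 libraries. Without CONT replicate 3, its unadjusted edgeR p was no longer under 0.05. Without CONT replicate 1, the log2 fold change was -2.38 (edgeR, adjusted p = 0.242). Relative to Scd1, Scd2 ran from 11.8 to 22.7 reads per 1000 Scd1 reads in CONT and stood at 1.81, 131 and 34.8 in CAC replicates 1 to 3, so CAC held both the lowest and the highest value.

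Scd3, a form best known from skin and the Harderian gland, had few reads. It had 6, 79 and 25 reads in CONT, or 0.535, 3.46 and 1.13 CPM, and 46, 131 and 905 reads in CAC, or 1.89, 5.29 and 34.2 CPM. CAC replicate 3 alone stood far above the others, and CAC replicate 1 lay within the CONT range. The mean was 8.07-fold higher in CAC, with a log2 fold change of 2.99 (SE 1.21; edgeR, adjusted p = 0.368). Without CAC replicate 3 the log2 fold change was 1.06 (edgeR, adjusted p = 0.700), and without CONT replicate 1 it was 2.60 (edgeR, adjusted p = 0.466). With 1 library left out, its unadjusted p stayed under 0.05 without CONT replicate 2 or CAC replicate 1 and not without any of the other 4. It was not under 0.05 with voom (log2 fold change 1.75) or with limma on log2(FPKM + 1) or log2(FPKM + 0.1), at 1.17 and 2.12. Scd3 amounted to 0.0423 to 0.147 reads per 1000 Scd1 reads in CONT, to 0.127 in CAC replicate 1, and to 6.05 and 11.3 in CAC replicates 2 and 3. Its reads were most numerous in the 2 libraries with the fewest Scd1 reads. The summed CPM of the brown and beige fat markers rose in the order of Scd3 within CAC, at 25.7, 99.0 and 150.9. Cidea, a lipid droplet protein of that list, did so too, at 2.50, 17.2 and 55.4 CPM, against 4.48 to 8.23 CPM in CONT. Cox8b, the most abundant of that list, did not keep that order, with 13.5, 54.0 and 43.6 CPM in CAC. The defining marker Ucp1 had at most 2 reads in any CAC library and 6 in CONT replicate 1. Neutrophil markers, too, were highest in CAC replicate 3, and the part of either list in the Scd3 value was not tested. Scd4, which edgeR's filter removed, had 4, 11 and 12 reads in CONT and 4, 6 and 6 in CAC.

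The 300 bases around the RefSeq start of Scd3 are shown because it had the largest fold of the 10 (GRCm38.p6, chr19:44203038-44203337, plus strand, 250 bases before to 50 after the start). They hold none of 5 motifs searched on both strands, namely the sterol response element TCACNCCAC, the NF-Y box CCAAT, the E-box CACGTG, the GC box GGGCGG and the TATA box TATAAA, so no base is in capitals.
Scd3 promoter: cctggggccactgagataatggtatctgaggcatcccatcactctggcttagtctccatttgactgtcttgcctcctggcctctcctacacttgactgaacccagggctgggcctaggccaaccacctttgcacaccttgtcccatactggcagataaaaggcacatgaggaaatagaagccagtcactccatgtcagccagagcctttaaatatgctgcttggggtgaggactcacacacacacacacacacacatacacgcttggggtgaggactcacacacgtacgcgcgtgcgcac
Among 32851 mouse promoters of the same length, 1.24% held the sterol response element, 37.4% the NF-Y box, 7.15% the E-box, 35.7% the GC box and 13.6% the TATA box. The table covered 7 of the 10 genes, without Scd1, Scd2 and Fads1, and none of the 7, nor Elovl6, held these letters of the sterol response element in this window. Other spellings of the element and positions outside the window were not searched.

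The 3 Fads genes lie side by side on chromosome 19, over 155 kb. Fads1 and Fads2 introduce double bonds into polyunsaturated fatty acids. Fads1 had 114, 129 and 191 CPM in CONT and 138, 162 and 92.5 CPM in CAC, so the CAC libraries lay on both sides of the CONT median. Its log2 fold change was -0.15 (SE 0.30; edgeR, adjusted p = 0.865), and the sign turned without CONT replicate 3 or CAC replicate 3. Fads2, which acts at the first step of the polyunsaturated pathway, had 5.35, 52.6 and 91.3 CPM in CONT and 7.68, 23.1 and 12.9 CPM in CAC. CONT replicate 1 lay below every CAC library and CONT replicates 2 and 3 lay above them. The mean was 3.42-fold lower in CAC, with a log2 fold change of -1.78 (SE 0.92; edgeR, adjusted p = 0.444). Without CONT replicate 1 the log2 fold change was -2.30 (edgeR, adjusted p = 0.234) and the adjusted p in DESeq2 was 0.00195. CONT replicate 3, the highest for Fads2, also held the most epididymis markers, with Adam7 at 1582 CPM. Without that library the log2 fold change of Fads2 was -0.98 (edgeR, adjusted p = 0.787), and the part of the epididymis in it was not tested.

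Fads3, a member of the same family that acts on sphingoid bases, had 2261, 8848 and 9922 reads in CONT, or 202, 388 and 448 CPM. In CAC it had 10923, 1235 and 661 reads, or 449, 49.8 and 25.0 CPM. CAC replicate 1 matched the highest CONT library, while CAC replicates 2 and 3 lay under every CONT library, as for Scd1. Over the 6 libraries, the log2 CPM of Fads3 and Scd1 had a Pearson r of 0.868, given as a description. The means were 346 ± 129 and 174 ± 238 CPM, with a log2 fold change of -0.99 (SE 1.03; edgeR, adjusted p = 0.706). Without CAC replicate 1 the log2 fold change was -3.15 (edgeR, adjusted p = 0.190), and DESeq2 gave an adjusted p of 7.34e-08. Without CAC replicate 2 the edgeR log2 fold change was -0.53, and without CAC replicate 3 it was -0.46. Without CAC replicate 1, 5 of the 10 genes had an unadjusted p under 0.05 in edgeR (Scd1, Scd2, Scd3, Fads3 and Hacd2), against 11.7% of all genes tested. The same 5 had an adjusted p under 0.05 in DESeq2 without that library, against 7.9% of genes, an alternative chosen after the data had been seen. Each of the other 5 libraries was left out in turn as well.

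The Fads3 promoter is shown beside that of Scd3 because Fads3 had the most motif matches of the desaturase genes in the table (RefSeq, GRCm38.p6, chr19:10041298-10041597, plus strand). Capitals mark 2 NF-Y boxes and 2 GC boxes, with 1 of each kind on each strand and no overlap.
Fads3 promoter: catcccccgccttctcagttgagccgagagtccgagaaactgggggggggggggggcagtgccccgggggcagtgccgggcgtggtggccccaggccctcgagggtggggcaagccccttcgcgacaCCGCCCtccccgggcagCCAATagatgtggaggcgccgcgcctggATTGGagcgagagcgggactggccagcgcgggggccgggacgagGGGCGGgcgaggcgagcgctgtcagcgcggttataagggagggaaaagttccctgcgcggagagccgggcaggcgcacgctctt
The NF-Y boxes lay 106 and 78 bases before the start and the GC boxes 123 and 34 bases before it. A match of letters is a description of the sequence and does not show that a factor binds there.

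**Figure D2:**
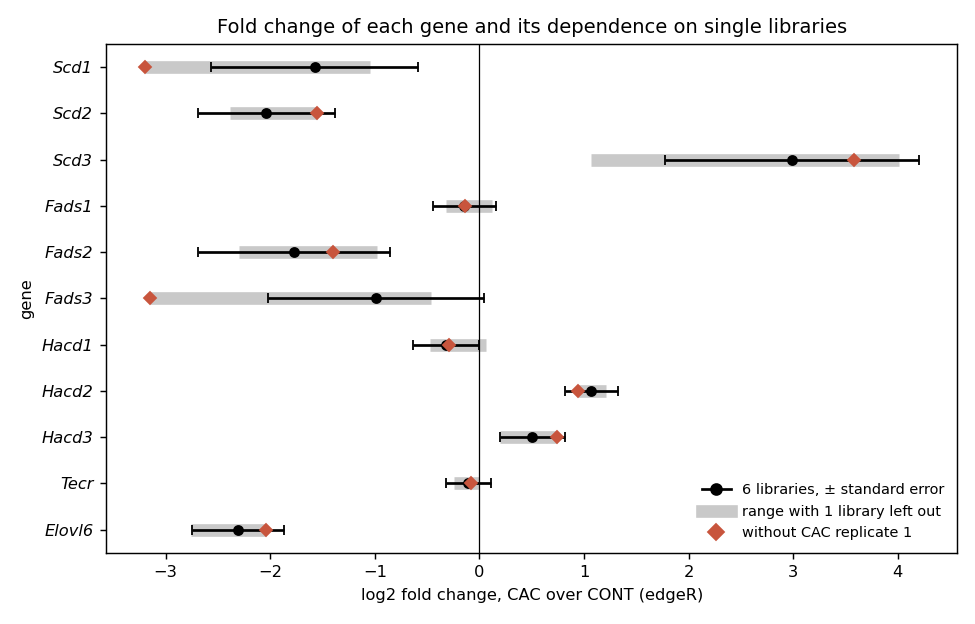
Log2 fold change of CAC over CONT from edgeR for each gene, with the standard error as a bar, the range over the 6 fits that leave out 1 library in grey and the fit without CAC replicate 1 as a red diamond. Scd1 and Fads3 move furthest without CAC replicate 1, to -3.20 and -3.15, while Hacd2 stays between 0.94 and 1.21.

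The makeup of each family's transcripts was compared per length, as the percent of the family's summed FPKM. Scd1 made up 98.5 ± 0.473% of the Scd sum in CONT and 94.8 ± 5.5% in CAC (mean ± SD, n = 3; exact two-sided permutation test, p = 0.4, where 0.1 is the smallest p possible). The difference of -3.71 percentage points was -0.79 without CAC replicate 2 and -6.25 without CAC replicate 1. Scd2 reached 10.3% of it in CAC replicate 2 and 0.160% in CAC replicate 1. Fads3 was the largest part of the Fads sum in the CONT libraries, with 62.9, 62.1 and 54.2%, and also in CAC replicate 1 with 75.3%. In CAC replicates 2 and 3 it held 19.7 and 17.8%, and Fads1 was the largest part with 60.5 and 62.3%. The summed FPKM of Hacd1 to Hacd4 was 55.6, 64.4 and 69.3 in CONT and 133.7, 95.9 and 117.1 in CAC, with every CAC library higher (exact permutation test, p = 0.1). Hacd2 held 68.2 ± 3.17% of that sum in CONT and 79.2 ± 5.82% in CAC (exact permutation test, p = 0.1), and the shares of Hacd1 and Hacd4 were lower in every CAC library.

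**Figure D3:**
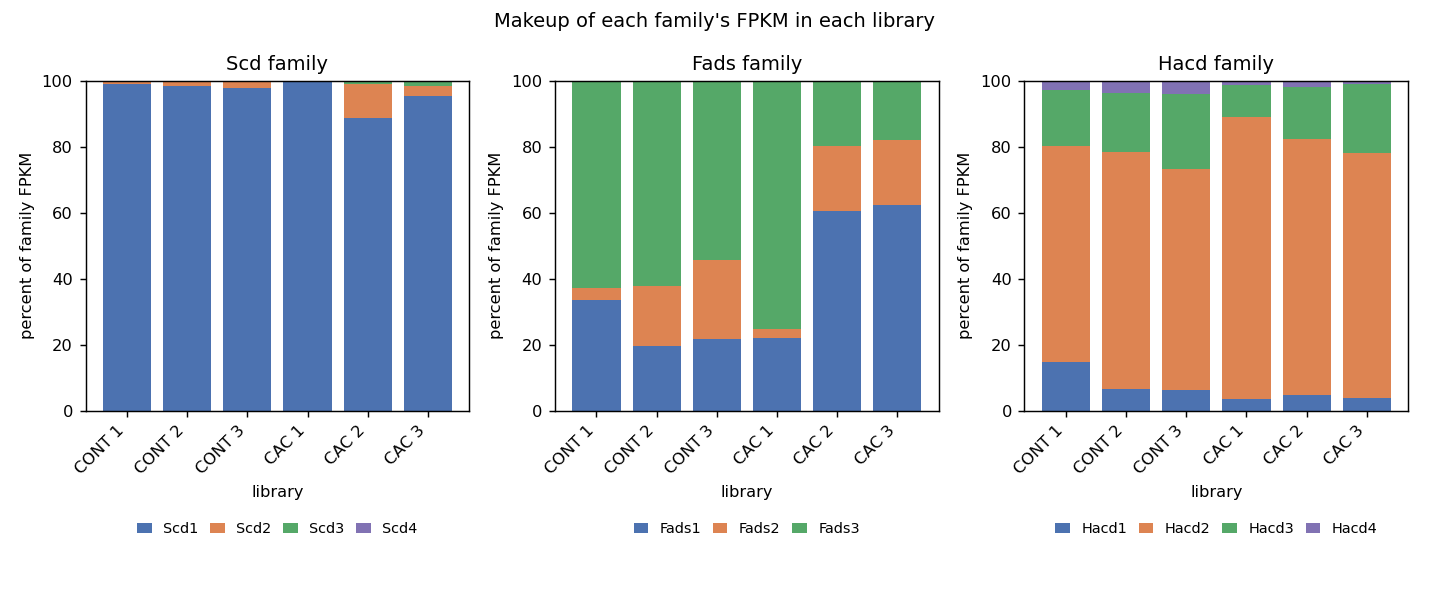
Percent of the summed FPKM of the Scd, Fads and Hacd families held by each gene, 1 bar per library. Scd1 holds 88.9% or more of its family in each library, Fads1 holds the largest part of its family in CAC replicates 2 and 3 and Fads3 in the other 4 libraries, and Hacd2 holds the largest part of its family in each library.

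Hacd2 encodes a broadly expressed dehydratase of the elongation cycle and lies on chromosome 16 (GRCm38, chr16:35022428-35109177). It had 1892, 4957 and 4806 reads in CONT, or 169, 217 and 217 CPM. In CAC it had 12679, 8511 and 10603 reads, or 521, 344 and 400.3 CPM. The groups did not overlap, and the highest CAC library, replicate 1, was 1.52 times the lowest. The means were 201 ± 28 and 422 ± 90.4 CPM (n = 3 each), 2.10-fold higher in CAC, with a log2 fold change of 1.07 (SE 0.25; edgeR, adjusted p = 0.238). It ranked 325 of 17296 genes by p. DESeq2 gave a log2 fold change of 1.10 (SE 0.25, adjusted p = 0.000874). Limma's voom with weighted samples gave 0.82 (adjusted p = 0.0459). Without any single library, the unadjusted p in edgeR and the adjusted one in DESeq2 stayed under 0.05, and without CONT replicate 1 the log2 fold change was 0.97 (edgeR, adjusted p = 0.237). An antisense gene, AC110166.2, overlaps Hacd2 and had 123 reads in all against 43448 for Hacd2. The library kit did not mark strand, so reads of the shared stretch cannot be assigned to either strand.

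The 3 genes whose log2 CPM followed Hacd2 most closely over the 6 libraries, out of 10195 searched, were Zbtb16 (Pearson r = 0.994), Ifngr1 (0.993) and Hipk1 (0.993). Zbtb16, a zinc finger transcription factor, had 29.4, 52.6 and 59.3 CPM in CONT and 331, 146 and 159 CPM in CAC. Ifngr1, a chain of the interferon gamma receptor, and Hipk1, a nuclear kinase, were also highest in CAC replicate 1. The promoter of Hacd2 is shown because the gene passed the adjusted test in DESeq2 (RefSeq, GRCm38.p6, chr16:35022171-35022470, plus strand). Capitals mark its 2 GC boxes, both on the minus strand, 51 and 10 bases before the start.
Hacd2 promoter: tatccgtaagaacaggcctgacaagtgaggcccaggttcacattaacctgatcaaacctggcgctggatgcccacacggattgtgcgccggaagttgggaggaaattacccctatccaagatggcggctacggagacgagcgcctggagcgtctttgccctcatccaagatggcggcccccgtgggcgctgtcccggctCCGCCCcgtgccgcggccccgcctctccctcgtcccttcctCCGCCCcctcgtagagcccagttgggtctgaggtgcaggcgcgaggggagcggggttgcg

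Hacd1, the form best known from muscle, had 238, 257 and 250 reads in CONT, or 21.2, 11.3 and 11.3 CPM, and 11.8, 11.9 and 11.3 CPM in CAC. CONT replicate 1 was the high library, and the other 5 lay between 11.3 and 11.9 CPM. The log2 fold change was -0.32 (SE 0.32; edgeR, adjusted p = 0.687) and turned to 0.07 without CONT replicate 1 (edgeR, adjusted p = 0.942). The skeletal muscle list was also highest in CONT replicate 1, with a sum of 123.7 CPM against 17.1 to 81.2 CPM in the other libraries, and its part in the Hacd1 value was not tested. Myl1, a myosin light chain and the most abundant of that list, had 76.0, 39.1 and 31.1 CPM in CONT.

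Hacd3, another dehydratase, had 31.7, 39.6 and 52.8 CPM in CONT and 43.0, 51.1 and 82.3 CPM in CAC. CAC replicate 3 was highest, and the other CAC libraries lay within the CONT range. The log2 fold change of 0.51 (SE 0.31; edgeR, adjusted p = 0.508) left it short of the threshold, and without CAC replicate 3 it fell to 0.19. Hacd4, which was not among the 10, had 12.2, 19.2 and 23.5 CPM in CONT and 13, 13.4 and 8.23 CPM in CAC (log2 fold change -0.66, SE 0.33; edgeR, adjusted p = 0.435).

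Tecr, the reductase that ends the cycle, varied little between libraries. It had 131, 182 and 188 CPM in CONT and 161, 163 and 141 CPM in CAC, so the CAC libraries lay within the CONT range. The log2 fold change was -0.11 (SE 0.21; edgeR, adjusted p = 0.860). The antisense gene D830024N08Rik overlaps Tecr and had 357 reads in all against 21466.

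The ratio of each gene to Elovl6 within a library asks whether it moved by another amount than the elongase. It was taken on CPM with 0.5 CPM added to both genes, which pulls the ratio of a low gene such as Scd3 towards 0. Elovl6 had 924, 3971 and 3645 reads in CONT, or 82.4, 174 and 165 CPM, and 475, 537 and 1164 reads in CAC, or 19.5, 21.7 and 44.0 CPM. The groups did not overlap (means 140.4 ± 50.4 and 28.4 ± 13.5 CPM, 4.95-fold lower in CAC), with a log2 fold change of -2.31 (SE 0.44; edgeR, adjusted p = 0.215). CAC replicate 1 was the lowest library for Elovl6, as for Scd2. On the log2 scale, the ratio of Hacd2 to Elovl6 was 1.03, 0.32 and 0.40 in CONT and 4.70, 3.96 and 3.17 in CAC, a mean difference of 3.36. Every CAC library exceeded every CONT library for Hacd2, Hacd3, Tecr, Hacd1, Fads1 and Scd3 (6 of 10; exact two-sided permutation test, p = 0.1 each, the smallest that 3 against 3 allows). Elovl6 itself was lower in every CAC library, so a gene whose level hardly moved separates as well, and of all 17295 other genes tested 77.3% had a ratio above every CONT library in every CAC library. Tecr, with a log2 fold change of -0.11, differed by 2.21 in this ratio. The count of 6 is thus no result about these enzymes. The mean differences of the other 5 of these ran from 2.06 for Hacd1 (2.70 without CONT replicate 1) to 4.36 for Scd3. For Scd1 the log2 ratio was 7.25, 7.08 and 6.89 in CONT and 9.53, 5.30 and 6.09 in CAC, so CAC lay on both sides of CONT (exact permutation test, p = 1). Scd2 (p = 0.9), Fads2 (p = 0.5) and Fads3 (p = 0.9, each an exact permutation test) overlapped as well. The mean log2 ratio of Scd2 to Elovl6 was 1.18 ± 0.30 in CONT and 1.36 ± 0.97 in CAC, a difference of 0.18.

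**Figure D4:**
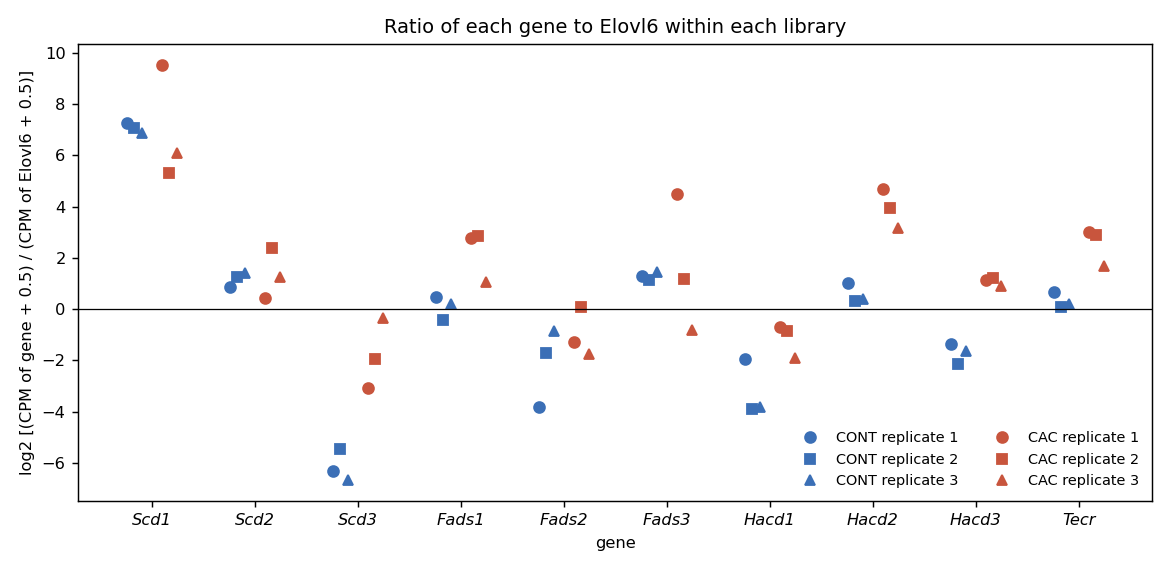
Log2 ratio of the CPM of each gene to that of Elovl6 in each library, with 0.5 added to both, with blue for CONT and red for CAC. All 3 CAC points lie above all 3 CONT points for Scd3, Fads1, Hacd1, Hacd2, Hacd3 and Tecr, while those of Scd1 and Fads3 spread to both sides.

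Of the genes that work beside these enzymes, 6 lists held 52 genes, of which 49 were tested. At an unadjusted p under 0.05, 4 were higher and 10 lower in CAC (14 of 49, Elovl6 included, against 13.3% of all genes tested), and 19 did not overlap between the groups, against 22.5%. In edgeR 0 had an adjusted p under 0.05, while DESeq2 gave 8, against 4.97% of all genes, and voom 9, against 5.51%. Their median log2 fold change was -0.23, against -0.06 over all genes tested. Among the 7 elongases, Elovl6 was lower and Elovl3, an elongase of brown fat, skin and liver, was higher (log2 fold change 5.86, SE 1.96; edgeR, adjusted p = 0.305). Elovl3 had 2, 10 and 2 reads in CONT and 4, 59 and 1074 in CAC, so CAC replicate 3 held most of its reads, as it did for Scd3. In the same cycle, Hsd17b12 had 63.4, 174 and 162 CPM in CONT and 213, 246 and 346 CPM in CAC, with every CAC library higher (log2 fold change 1.01; edgeR, adjusted p = 0.377).

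Desaturases take their electrons from cytochrome b5 and its reductases. The list held 7 genes for cytochrome b5, b5 reductases and Por, a cytochrome P450 reductase. Of these, Cyb5b (log2 fold change -0.79), a mitochondrial form, Cyb5r1 (-0.86) and Cyb5r2 (-1.83) were lower at an unadjusted p under 0.05 in edgeR. None was higher, against 6.95% of all genes tested lower and 6.31% higher. By sign, 3 of the 7 were higher and 4 lower, and the most abundant, Cyb5a and Por, were among the higher. Mean CPM was 388 in CONT and 687 in CAC for Cyb5a, with overlap, and 418 and 770 for Por, without overlap. The list summed to 1433 to 1648 CPM in CONT and 1786 to 2046 CPM in CAC. In the 9 tested genes of de novo lipogenesis, which supplies the saturated substrates, 5 were lower at that threshold, again against 6.95%. They were the citrate carrier Slc25a1 (-0.63), the citrate lyase Acly (-1.40), the acetyl-CoA synthetase Acss2 (-1.31), the malic enzyme Me1 (-1.03) and Mid1ip1 (-1.56), which activates acetyl-CoA carboxylase. The fatty acid synthase gene Fasn (-0.93), the carboxylase gene Acaca (-0.12) and Thrsp (-0.69) did not pass it, and their groups overlapped. Acacb, the carboxylase isoform tied to control of fatty acid oxidation, was higher at 2.50, with 123, 187 and 279 CPM in CONT and 919, 1339 and 1088 CPM in CAC. Of the 7 acyl-CoA synthetases and transporters, Slc27a1 alone passed that threshold, at 271, 471 and 777 CPM in CONT and 2081, 3017 and 3443 CPM in CAC (log2 fold change 2.49, SE 0.48; edgeR, adjusted p = 0.215).

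Of 14 regulators of desaturase genes, Insig1, which holds SREBP in the endoplasmic reticulum and is itself an SREBP target, was the one under that threshold, against 13.3% of all genes tested, with a log2 fold change of -1.22 (SE 0.27; edgeR, adjusted p = 0.228). It had 124, 180.4 and 161 CPM in CONT and 48.6, 65.5 and 86.1 CPM in CAC, without overlap. Srebf1, which encodes the SREBP that drives lipogenic genes, had 324, 376 and 545 CPM in CONT and 401, 228 and 234 CPM in CAC. CAC replicate 1 again lay within the CONT range and CAC replicates 2 and 3 below it, and its log2 fold change was -0.53 (SE 0.34; edgeR, adjusted p = 0.520).

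In 6 fits that each dropped 1 library, 7 of the 14 pathway genes under that threshold kept an unadjusted p under 0.05 in edgeR every time (Elovl6, Cyb5b, Slc27a1, Acacb, Me1, Mid1ip1 and Insig1). The other 7 lost it at least once, with 3 of them (Elovl3, Cyb5r1 and Slc25a1) losing it without CONT replicate 1. Cyb5r2 rested on CONT replicate 3, with 1.16, 1.01 and 4.84 CPM in CONT and 0.657, 0.444 and 0.868 CPM in CAC. Without that library its log2 fold change was -0.70, and it also lost the threshold without any 1 of the CAC libraries. The log2 fold change of Elovl3 was 2.39 without CAC replicate 3. Acly lost the threshold without any 1 library other than CONT replicate 1, and its log2 fold change was -0.89 without CONT replicate 2. Acss2 stood at -0.79 without CONT replicate 2, and Hsd17b12 at 0.69 without CONT replicate 1. Hsd17b12 lost the threshold without CONT replicate 3, CAC replicate 2 or CAC replicate 3.

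**Figure D5:**
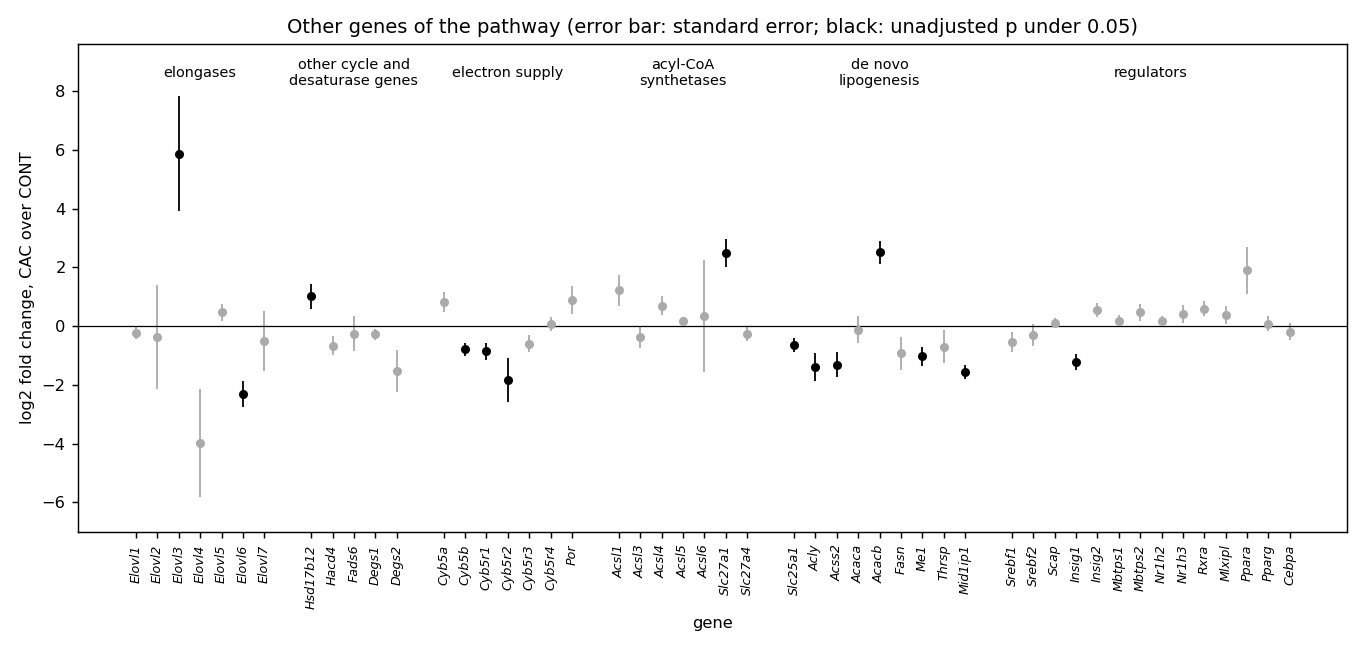
Log2 fold change of CAC over CONT from edgeR, with standard errors, for the 49 tested genes of 6 pathway lists, in black where the unadjusted p was under 0.05. Of the 14 black points, 10 lie below 0 and 4 above, and Elovl3 has the widest error bar among them.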

How the data were processed

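The authors isolated poly(A) RNA, made libraries with a kit that does not mark strand, cleaned the reads, mapped these with HISAT2 2.0.5 (mouse, Ensembl release 94) and counted reads per gene (featureCounts 1.5.0-p3 in the submitters' processing notes). The deposited counts are whole numbers without normalization. The deposited FPKM columns divide those counts by gene length and a library total.

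Groups and replicate numbers came from the sample titles. Counts of 3 CONT and 3 CAC libraries were fitted with edgeR 4.0.16 (quasi-likelihood, robust, TMM, filterByExpr, Benjamini-Hochberg over all genes tested) in R 4.3.3. Alternatives were RLE and upper-quartile scaling, no filter, a minimum of 10 counts per library, a block for replicate number, single libraries left out, DESeq2 1.42.0, limma 3.58.1 with voom and sample quality weights, and limma on log2(FPKM + 1) or log2(FPKM + 0.1), where low genes change less. DESeq2 with each library left out was added after the data had been seen. Ratios to Elovl6 used CPM with 0.5 added. No library was a copy of another, as differences within groups exceeded counting noise. Scripts were tested on simulated data. The FPKM library totals differ from the sums of counts, so FPKM and CPM folds need not be equal.

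Genes were named by rule: the 10 genes and Elovl6, pathway genes with an unadjusted p under 0.05, Hsd17b12, Hacd4, Scd4 and Srebf1, the leading gene of each marker list that moved more than 2-fold, overlapping genes, and the 3 genes most like Scd1 and Hacd2 (mean CPM of at least 10, prior count 2). Lep, Fabp4, Cidea, Ly6g, Adam7, Ucp1, Cyb5a, Por, Fasn, Acaca, Thrsp, Pnpla2 and Pparg were named after their values were seen. The 10 genes and all lists were chosen with earlier results of these data known. Promoters and motifs came from RefSeq (GRCm38.p6) and transcripts from GENCODE M21.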

Additional observations from a re-analysis of the deposited data

How the results depend on the processing

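Of 367 recomputed values, 335 kept their direction and their side of the adjusted threshold or, for counts, stayed within 1.5 times of the reported one. This does not cover the unadjusted threshold of 0.05, which Scd2 lost without CONT replicate 3 and Scd3 without 4 of the 6 libraries, and which Scd1 passed with voom. With DESeq2, 2 of the 10 passed after adjustment, with log2 fold changes of -2.0 for Scd2, 1.10 for Hacd2 and -2.27 for Elovl6. With voom and sample quality weights, 1 passed, 5 had an unadjusted p under 0.05 (28.2% of all genes tested did, against 13.3% in edgeR), 24 of the other pathway genes did, and the log2 fold changes were 0.82 for Hacd2, -2.72 for Elovl6 and, turned in sign, 0.039 for Hacd1. It moved Scd1 to -3.54, Fads3 to -2.70 and Scd3 to 1.75, and Scd3 was no longer under the unadjusted 0.05, nor in either FPKM fit. The replicate block gave -2.48 for Scd1 and -2.24 for Fads3, and limma on log2(FPKM + 1) gave -2.38, -1.87 and, for Fads2, -1.11, against -1.58, -0.99 and -1.78 in edgeR. With DESeq2 and 1 library left out, 1 to 5 of the 10 had an adjusted p under 0.05, with 5 without CAC replicate 1, 3 without CONT replicate 1 (Fads2, Hacd2 and Scd2), 2 without CONT replicate 2 (Hacd2 and Scd3), and Hacd2 alone without CONT replicate 3, CAC replicate 2 or CAC replicate 3. Over all genes that share was 3.53 to 11.9%, lowest without CAC replicate 3 and highest without CONT replicate 1.

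With edgeR and 1 library left out, the number with an unadjusted p under 0.05 ran from 1 (without CONT replicate 3) to 5 (without CAC replicate 1), where the share of all genes was 9.25% and 11.7%, and 0 passed after adjustment each time. The number without overlap ran from 2 to 6 (5 without CAC replicate 1, 6 without CONT replicate 1), where the share of all genes ran from 28.6 to 40.6% (36% and 40.6% without those libraries), and that of other pathway genes with an unadjusted p under 0.05 from 9 (without CAC replicate 2 or 3) to 19 (without CONT replicate 1), where 7.24, 8.32 and 15.6% of all genes were under it. The log2 fold change of Fads1 ran from -0.32 to 0.12 and was 0.06 without CAC replicate 3, and that of Hacd1 from -0.47 to 0.065. The log2 ratio to Elovl6, as the difference of CAC from CONT, ran from -1.38 to 0.74 for Scd1 (0.34 without CAC replicate 3), from -0.33 to 0.63 for Scd2 and from -1.10 to 1.54 for Fads3. The share of Fads2 in its family's FPKM differed by -6.95 to 4.56 percentage points (0.384 without CONT replicate 2 and 3.20 without CONT replicate 3). The cause of these shifts was not tested.

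No pairing of mice by replicate number was named. The deviations of same-numbered libraries correlated at 0.306, -0.151 and -0.218, within the -0.442 to 0.473 of unlike-numbered ones, and so few values cannot decide it. With the replicate block, 2 of the 10 (Hacd2 and Scd2) had an unadjusted p under 0.05, 0 an adjusted one, and 13 other pathway genes an unadjusted one, against 11.5% of all genes tested. Scd3, with 6 reads in CONT replicate 1, was the gene most limited by depth, and a minimum of 10 counts per library removed it.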

Other observations

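Other marker lists also varied between the libraries. The 5 erythroid markers, led by the globin gene Hba-a1, summed to 5678 CPM in CONT replicate 1, against 260.7 to 2439 CPM in the other libraries. The 8 macrophage markers, led by Lyz2, summed to 525 CPM in that library and to between 829 and 1590.0 CPM in the others. The 6 B cell markers summed to 15.6 to 38.8 CPM in CONT and to 5.17 to 11.1 CPM in CAC, and Pax5 reached 19.6 CPM in CONT replicate 1. Of 10 adipose stromal markers, 5 were lower in CAC at an unadjusted p under 0.05 in edgeR and none higher, against 6.95% of all genes tested lower and 6.31% higher. The fat cell, T cell, endothelial, mesothelium and nerve lists stayed within 2-fold of their median library.

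The ratio of Scd1 to Scd2 reads differed within CAC, since Scd2 took 1.81 reads per 1000 Scd1 reads in CAC replicate 1 and 131 in CAC replicate 2. The ratio of Scd3 to Scd1 was lowest in CONT replicate 1, at 0.0423 reads per 1000.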
